A study of Thermothelomyces thermophilus with 14 samples.

Results

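Myceliophthora thermophila is a thermophilic filamentous fungus that degrades plant cell walls, and messenger RNA was sequenced from its mycelium after a move to polymers in flasks or to disaccharides in plates. Described here is the contrast between what cellulose did in flasks and what cellobiose did in plates: the log2 change from Xylan to XA minus the log2 change from X2 to G2X2. It rests on 8 of the 14 libraries, 2 for each of these 4 groups, chosen by their labels and not by any measured value. All were wild-type mycelium (strain ATCC 42464) collected 4 h after precultured material was moved into Vogel's salts. The Xylan flasks held 2% xylan and the XA flasks 1% xylan with 1% Avicel, a microcrystalline cellulose, both in 100 mL. The X2 wells held 2% xylobiose and the G2X2 wells 2% xylobiose with 2% cellobiose, both in 5 mL. XA is written AX in the count table, and both names denote Avicel with xylan. Each change was taken within its own vessel, so a constant log2 difference between flasks and plates cancels. The flask change also lowered xylan from 2% to 1% at an equal total, whereas the plate change kept xylobiose and raised total sugar from 2% to 4%. These differences, and that between polymer and disaccharide, cannot be told apart in the contrast.

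Cellulose is cut by cellobiohydrolases, endoglucanases and lytic polysaccharide monooxygenases (LPMOs) into cellobiose, which is taken up by cellodextrin transporters and split to glucose inside the cell by a beta-glucosidase. Xylan is cut by xylanases into xylobiose and longer xylodextrins. In Neurospora crassa, a related fungus, the transcription factors CLR-1 and CLR-2 are needed for cellulase genes to respond to cellobiose, while XYR1 drives xylanase genes in Trichoderma reesei and CRE-1 lowers many of these genes when glucose is plentiful. The reference table names 1 of the 26 listed loci, cbdA, a cellobiose dehydrogenase gene. The other trivial names and roles are published locus assignments as remembered, which that table neither gives nor contradicts; that of cdt-1 is the least sure.

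Across the genome, a gene's change with Avicel in flasks told little of its change with cellobiose in plates. Of 9110 genes in the table, 8567 had enough counts to be tested, and a gene was called when its adjusted p in edgeR was under 0.05. XA against Xylan called 31.9% of genes, 14.8% higher and 17.1% lower, and G2X2 against X2 called 30.0%, 14.6% higher and 15.4% lower. The contrast of the 2 changes called 2994 genes, or 34.9%. In 1457 of them (17.0%) it was positive, the flask change being the higher of the pair, and in 1537 (17.9%) it was negative. Of all genes tested, 29.5% were called with an absolute log2 value of at least 1. Over the 8567 genes, flask and plate changes had a Pearson correlation of -0.01, given as a description, since genes of a library are not independent. Of 841 genes called in both changes, 420 moved the same way and 421 opposite ways, so 49.9% agreed in direction. That share was 38.6% without X2 replicate 1 and 62.6% without X2 replicate 2.

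The 1457 positive genes came about in several ways. Of these, 483 were called higher in flasks and not called in plates, 556 were called lower in plates and not called in flasks, and 221 were called higher in flasks and lower in plates. A further 4 were called higher in both changes, 20 lower in both, and 173 in neither. Among the 1537 negative genes, 694 were called lower in flasks and not called in plates, 490 higher in plates and not called in flasks, and 200 lower in flasks and higher in plates. The remainder were 14 called higher in both, 16 lower in both, and 123 called in neither.

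**Figure D1:**
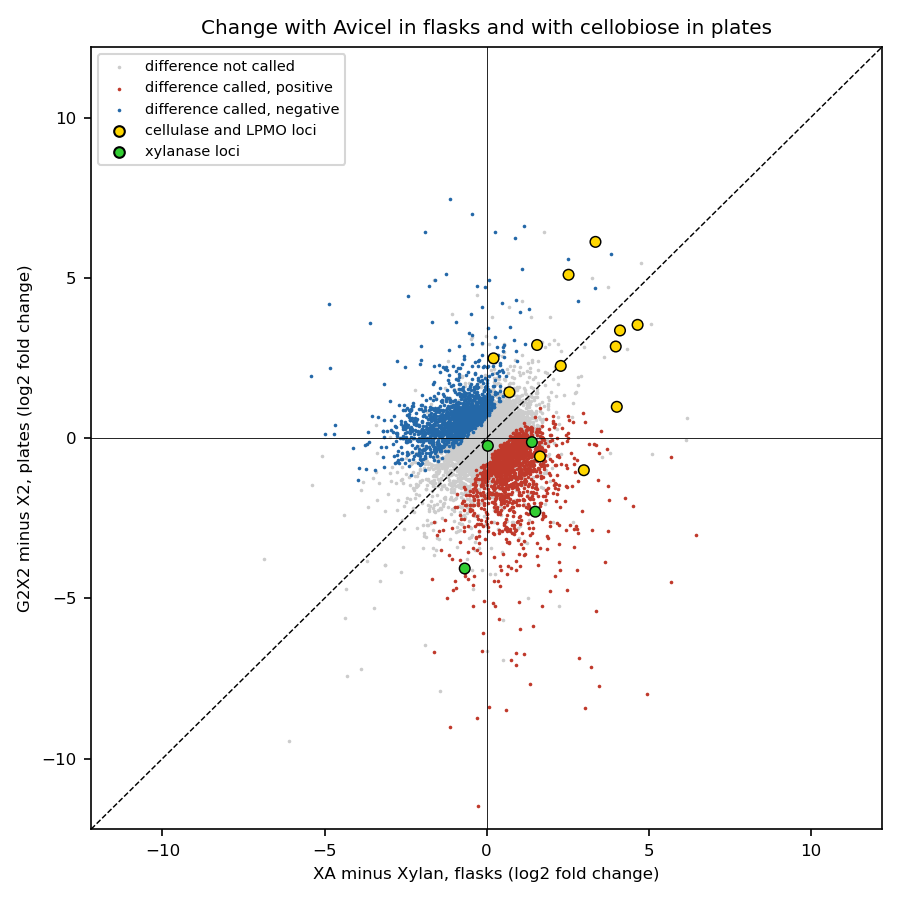
Each point is 1 of 8567 genes, with the log2 change from Xylan to XA (flasks) on the x axis and that from X2 to G2X2 (plates) on the y axis. Red and blue points were called as positive or negative in the contrast; the dashed line marks equal changes, the yellow points are the 12 cellulase and LPMO loci, most of them to the upper right, and the green points the 4 xylanase loci. Genes with no count in a group lie far out at values that depend on the fit.

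The 8 libraries held 20190840 to 25254924 counts each. Levels are given as CPM, with every library brought to an equal scaled total. They are shares of a library, so more transcript of a gene and less RNA of all other kinds cannot be told apart. Replicates correlated across genes at r = 0.962 in X2, 0.971 in G2X2, 0.976 in Xylan and 0.989 in XA. The X2 pair stood farthest apart, with a median difference between replicates of 0.39 on the log2 scale against 0.13 in XA, and results that rest on 1 X2 library are named as such. Nothing in the labels says that replicates were separate cultures, so the p-values measure a spread between libraries that may be technical. That spread was estimated in 1 fit of all 14 libraries and not from these 8 alone.

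Most of the listed cellulase and LPMO loci were raised on both sides. Of the 12 cellulase and LPMO loci, 9 were called higher and 0 lower with Avicel, and likewise 9 and 0 with cellobiose. This list was made with earlier results of these data known. The 9 in plates include LPMO9D, at a mean of 4.86 CPM in G2X2. Its plate call was lost with the replicate block (1.43) and with X2 and G2X2 fitted alone (1.41). Of all genes tested, 14.8% were called higher in flasks and 14.6% in plates. The 12 loci had a median change of 2.77 in flasks and 2.67 in plates, against 0.01 for all genes tested in each. In the contrast 2 were called positive, 4 negative and 6 were not called, with a median of 0.40 against -0.02 for all genes. That split rested on single libraries. It was 5 positive and 2 negative (median 0.98) without X2 replicate 1, 1 and 3 (median -0.65) without X2 replicate 2, 1 and 2 without Xylan replicate 2, and 2 and 1 without either XA library or G2X2 replicate 2. All 26 listed loci together held 8 positive and 4 negative calls, to be read beside the 17.0% and 17.9% of all genes.

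The loci that were not called in the contrast include genes with large changes in both vessels. The cellobiohydrolase gene cbh-2 (MYCTH_66729) stood at 106 and 59.3 CPM in Xylan, 1375 and 1243 in XA, 88.2 and 238 in X2, and 998 and 1365 in G2X2. The XA and G2X2 libraries overlapped, and all 4 lay above the libraries without cellulose or cellobiose. The contrast was 1.13 ± 0.63 (log2 ± SE; 95% interval -0.23 to 2.49; edgeR adjusted p = 0.178), or 1.66 and called without X2 replicate 1 (edgeR adjusted p = 0.0334) and 0.22 without X2 replicate 2 (edgeR adjusted p = 0.797).

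The cellobiose dehydrogenase gene cbdA (MYCTH_111388), whose enzyme passes electrons from cellobiose to LPMOs, went from 19.2 and 14.8 CPM in Xylan to 340.4 and 248 in XA. In plates it went from 13.0 and 50.7 in X2 to 299 and 351 in G2X2. No library with the cellulose-side carbon overlapped one without it. The contrast was 0.76 ± 0.73 (95% interval -0.82 to 2.34), and its sign turned on the X2 libraries, at 1.42 without replicate 1 and -0.54 without replicate 2.

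The endoglucanase gene eg-45 (MYCTH_76901) changed by 2.29 in flasks and 2.25 in plates, and the contrast was 0.04 (95% interval -1.10 to 1.17), or -0.76 without X2 replicate 2. For eg-1 (MYCTH_111372), another endoglucanase gene, the levels were 3.27 and 3.45 CPM in Xylan, 96.8 and 73.2 in XA, 3.43 and 12.1 in X2, and 78.7 and 98.9 in G2X2. The contrast was 1.13 (95% interval -0.37 to 2.62), -0.05 without X2 replicate 2 and 1.77 and called without X2 replicate 1 (edgeR adjusted p = 0.0238). These intervals reach past 2 on the log2 scale for cbh-2, cbdA and eg-1, so sizable differences remain possible.

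At 2 of the loci called in the contrast, the flask change was the higher of the pair. The cellobiohydrolase gene cbh-1 (MYCTH_109566) stood at 322 and 128 CPM in Xylan and rose to 3794 and 3495 in XA. In X2 it stood at 361 and 917 and in G2X2 at 1079 and 1431, a change of 0.97 that was not called. All G2X2 libraries lay above the X2 libraries, but the X2 libraries already lay above those of Xylan. The contrast was 3.04 ± 0.80 (edgeR adjusted p = 0.0130), a call lost without Xylan replicate 2 (2.50, edgeR adjusted p = 0.0504) or X2 replicate 2 (2.20, edgeR adjusted p = 0.0625).

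LPMO9B (MYCTH_80312), an LPMO gene, showed the larger contrast of the 2. Its levels were 25.3 and 17.0 CPM in Xylan, 194 and 144 in XA, 52.0 and 175 in X2, and 51.6 and 61.3 in G2X2. It rose with Avicel by 3.0, while the X2 and G2X2 libraries overlapped (-1.0, not called, or -1.62 and called without X2 replicate 1). The contrast was 4.00 ± 0.68 (edgeR adjusted p = 0.00136), and it was called under all 14 alternatives, from 2.87 to 4.62. LPMO9H (MYCTH_46583) had a contrast of 2.22 that was not called (edgeR adjusted p = 0.0575). It was called with upper-quartile scaling (2.35) and without Xylan replicate 1 (2.73) or X2 replicate 1 (2.95), and it was 0.64 without X2 replicate 2.

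At 4 of the loci called in the contrast, the plate change was the higher of the pair. LPMO9A (MYCTH_85556) stood at 2.62 and 5.05 CPM in Xylan and 2.83 and 4.73 in X2, so that both starting groups overlapped. It reached 43.4 and 36.0 CPM in XA, and 136 and 386 in G2X2, above both XA libraries. The contrast was -2.76 ± 0.65 (edgeR adjusted p = 0.00745) and was called under all 14 alternatives, from -3.32 to -1.82.

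The LPMO locus MYCTH_112089 rose by 2.53 in flasks and by 5.09 in plates. It stood at 31.3 and 35.5 CPM in Xylan, 221 and 164 in XA, 1.85 and 6.82 in X2, and 98.4 and 193 in G2X2. The libraries with the cellulose-side carbon overlapped between vessels, and the starting libraries did not. The contrast was -2.56 (edgeR adjusted p = 0.0296).

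The endoglucanase gene eg-2 (MYCTH_86753) rose by 1.56 in flasks, from 350 and 294 to 960 and 936 CPM, and by 2.90 in plates, from 142 and 213 to 1154 and 1503 CPM. Its contrast was -1.35 ± 0.44 (edgeR adjusted p = 0.0324). The LPMO locus MYCTH_79765 stood between 5.42 and 10.6 CPM in the 4 flask libraries and was not called there, but went from 5.06 and 4.05 in X2 to 13.5 and 37.8 in G2X2, with a contrast of -2.27 (edgeR adjusted p = 0.0219). These 3 calls were lost in several fits with 1 library fewer. That of MYCTH_112089 was lost without Xylan replicate 2 (-2.50) or X2 replicate 1 (-1.9), that of eg-2 without Xylan replicate 1 (-1.21) or X2 replicate 1 (-1.10), and that of MYCTH_79765 without Xylan replicate 2 (-1.74) or X2 replicate 2 (-2.14). Without either XA library all 3 were also lost at values close to those above (-1.36 and -1.34 for eg-2, -2.32 and -2.23 for MYCTH_79765, -2.79 and -2.37 for MYCTH_112089). Without G2X2 replicate 2 they were lost at -1.14, -1.34 and -2.0 (edgeR adjusted p = 0.0605 to 0.116 over these cases). The last locus, LPMO9D (MYCTH_92668), stood at no more than 5.65 CPM in any of the 8 libraries, with a contrast of -0.73 that was not called.

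**Figure D2:**
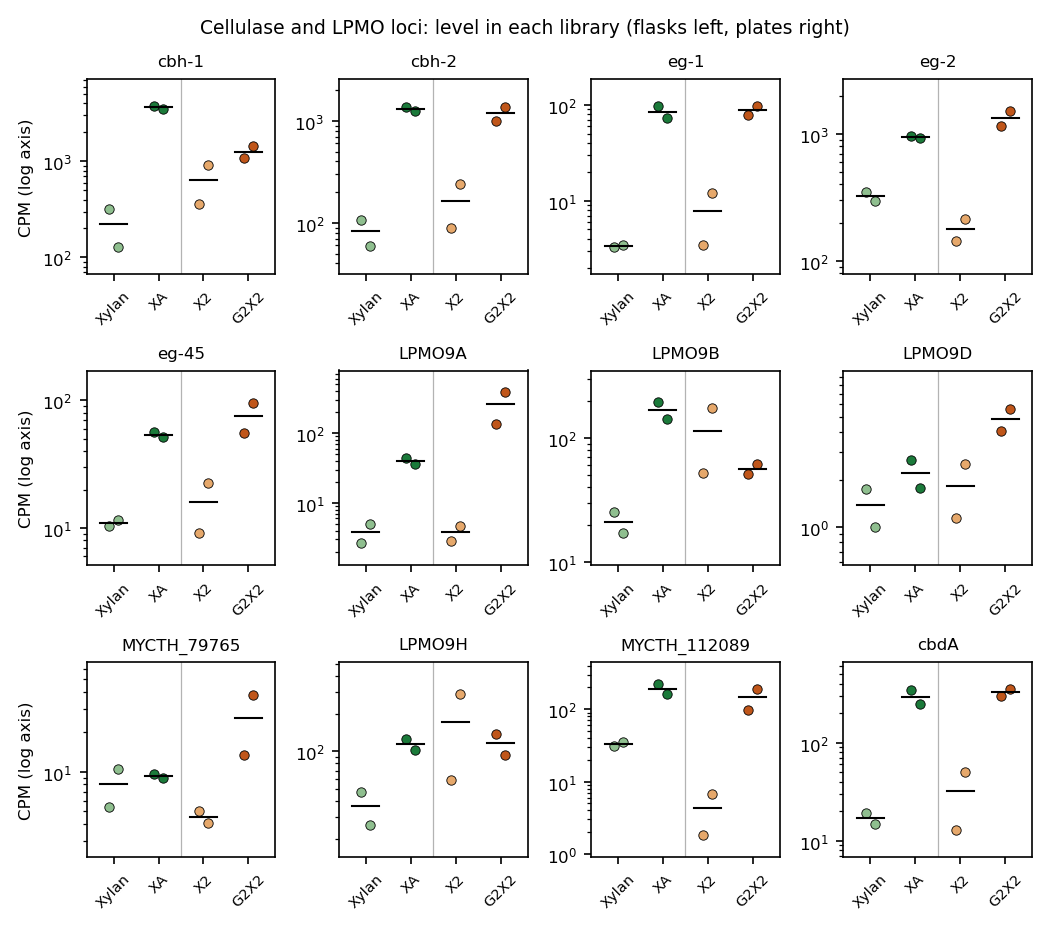
Level of each cellulase and LPMO locus in CPM on a log axis, with 1 point per library (2 per group), a bar at the group mean, and flasks to the left of the grey line. The XA and G2X2 points lie near each other for cbh-2, eg-1 and cbdA, and the G2X2 points of LPMO9A (136 and 386 CPM) lie above its XA points (43.4 and 36.0 CPM).

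Some of the listed xylanase loci changed differently in flasks and plates. The list was made with earlier results of these data known, so its counts describe these loci and not xylanase genes at large. Of the 4 xylanase loci, 2 were called higher and 0 lower with Avicel, while 0 were called higher and 2 lower with cellobiose, and in the contrast 3 were called positive and 0 negative. Of all genes, 14.8% were called higher with Avicel, 15.4% lower with cellobiose and 17.0% positive in the contrast. The flask count was 0 without XA replicate 1 or either Xylan library, and 1 without XA replicate 2. MYCTH_49824 was called in opposite directions: it stood at 486 and 565 CPM in Xylan and 1619 and 1361 in XA, but at 704 and 2172 in X2 and 249 and 336 in G2X2. The libraries did not overlap within either vessel. The contrast was 3.80 ± 0.65 (edgeR adjusted p = 0.00144) and was called under all 14 alternatives, from 2.75 to 4.39. The flask rise by itself was not called on leaving out any 1 of the 4 flask libraries (edgeR adjusted p = 0.0704 to 0.117).

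MYCTH_89603 reached its contrast through the plates. In flasks it stood at 815 and 1789 CPM in Xylan and 902 and 729 in XA, overlapping values with a change of -0.67 that was not called. In plates it fell from 5725 and 12636 CPM in X2 to 456 and 637 in G2X2, a change of -4.07. Its highest levels were thus in the medium with xylobiose alone. The contrast was 3.40 ± 0.60 (edgeR adjusted p = 0.00164) and was called under all 14 alternatives, from 2.70 to 4.05.

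MYCTH_112050 stood at 488 and 507 CPM in Xylan, 1436 and 1186 in XA, 410 and 1192 in X2, and 658 and 808 in G2X2. The X2 libraries lay to either side of those of G2X2. Its flask rise of 1.40 was not called without XA replicate 1 or either Xylan library (edgeR adjusted p = 0.0688 to 0.0935). Its contrast of 1.53 (edgeR adjusted p = 0.0447) was the least firm of the 3. It was lost with a replicate block (1.5), in a fit of the 4 contrasted groups alone (1.52), without any 1 of the flask libraries (1.38 to 1.65) or G2X2 libraries (1.39 and 1.68), and without X2 replicate 2 (0.54). MYCTH_56237 was not called in either vessel, where Xylan and XA overlapped and so did X2 and G2X2, and its contrast was 0.28 (95% interval -0.73 to 1.29).

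Genes for uptake and use of the disaccharides split. The cellodextrin transporter gene cdt-2 (MYCTH_114107) stood at 423 and 195 CPM in Xylan and rose to 2318 and 1960 in XA. In plates it was already at 1467 and 3208 CPM in X2, and stood at 1479 and 1443 in G2X2, a change of -0.68 that was not called. The Xylan libraries lay below the other 6. The X2 libraries overlapped both XA and G2X2, and XA lay above G2X2. The contrast was 3.47 ± 0.56 (edgeR adjusted p = 0.00102) and was called under all 14 alternatives, from 2.78 to 4.14.

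For the intracellular beta-glucosidase, the gene gh1-1 (MYCTH_115968) was raised in both vessels, by 2.28 from 59.4 and 38.3 to 263 and 212 CPM in flasks, and by 2.73 from 46.0 and 80.2 to 411 and 425 CPM in plates. The contrast was -0.45 ± 0.42 (95% interval -1.36 to 0.47; edgeR adjusted p = 0.430), and it was not called under any of the 14 alternatives. The second transporter locus, cdt-1 (MYCTH_43941), also rose in both, by 2.04 and 1.84, at no more than 8.58 CPM in any of the 8 libraries. Neither call held up to leaving out 1 library (1.83 without Xylan replicate 2 in flasks and 1.06 without X2 replicate 1 in plates), and the contrast was 0.21 (95% interval -1.60 to 2.01), or 0.98 without X2 replicate 1 and -1.41 without X2 replicate 2.

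The arabinose transporter gene lat-1 (MYCTH_95427) was not called in flasks (0.17), at 406 and 141 CPM in Xylan and 326 and 288 in XA. The XA libraries lay between those of Xylan, and without Xylan replicate 1 the flask change was 1.14 and called (edgeR adjusted p = 0.0216). It fell in plates from 24.7 and 44.4 CPM in X2 to 10.1 and 7.29 in G2X2. The contrast was 2.15 ± 0.56 (edgeR adjusted p = 0.0116), or 1.65 and not called without X2 replicate 2 (edgeR adjusted p = 0.0574). The locus glt-1 (MYCTH_108924), for a glucose transporter, stood between 38.9 and 122 CPM in the 8 libraries and was not called in either vessel or in the contrast (-0.69, 95% interval -2.35 to 0.96).

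Of the 4 regulator loci, clr-1 was the sole one called in the contrast, to be read beside the 34.9% of all genes tested that were called. The gene clr-1 (MYCTH_2298863) stood at 46.7 and 35.2 CPM in Xylan and 88.8 and 85.1 in XA, against 53.2 and 80.1 in X2 and 57.6 and 43.1 in G2X2. The flask groups did not overlap and the plate groups did. The contrast was 1.49 ± 0.40 (edgeR adjusted p = 0.0132), a call lost without Xylan replicate 2 (1.28), G2X2 replicate 2 (1.30) or X2 replicate 2 (1.15; edgeR adjusted p = 0.0531 to 0.0606).

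The gene clr-2 (MYCTH_38704) rose in both vessels, from 19.9 and 6.45 to 186 and 140 CPM with Avicel and from 4.52 and 15.7 to 63.0 and 52.0 CPM with cellobiose. Its contrast was 1.11 ± 0.71 (95% interval -0.44 to 2.66), ranging from -0.05 without X2 replicate 2 to 2.15 without Xylan replicate 1, where it was called (edgeR adjusted p = 0.0292). It was also called without X2 replicate 1 (1.74). The gene xyr-1 (MYCTH_2310145), for a xylanase regulator, was raised by 1.99 and 1.42, with a contrast of 0.57 (95% interval -0.29 to 1.43), or 1.17 and called without Xylan replicate 1. The repressor gene cre-1 (MYCTH_2310085) stood at 644 and 526 CPM in Xylan, 409 and 371 in XA, 668 and 583 in X2, and 298 and 315 in G2X2. It was called lower in plates (-1.03; not called without G2X2 replicate 1, -0.99) and not in flasks (-0.58; called with DESeq2 or in a fit of Xylan and XA alone). The contrast of 0.45 was not called (95% interval -0.29 to 1.18).

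The alkaline protease gene alp-1 (MYCTH_2303011) was lower with the cellulose-side carbon in both vessels. It went from 805 and 822 to 243 and 257 CPM in flasks, and from 1983 and 2710 to 459 and 295 CPM in plates. The contrast was 0.94 ± 0.44 (95% interval -0.03 to 1.9; edgeR adjusted p = 0.118).

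**Figure D3:**
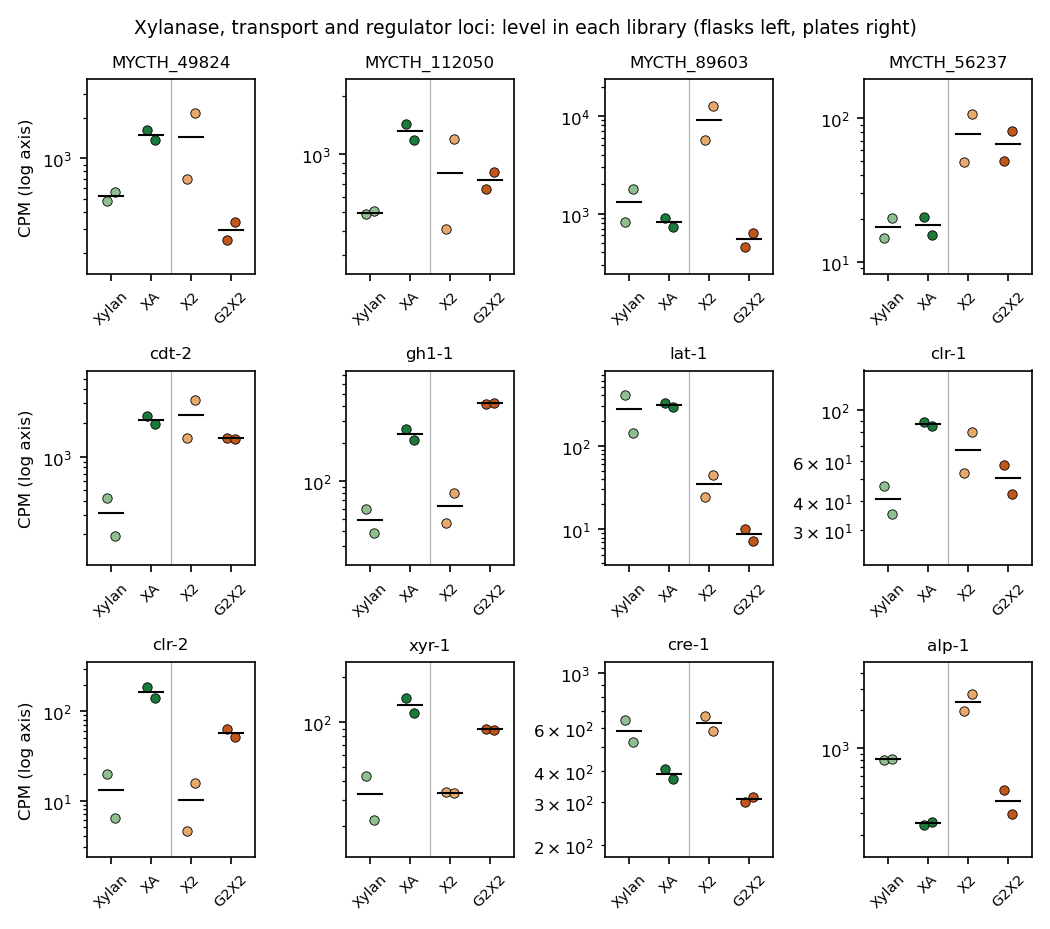
Level of 12 xylanase, transport, regulator and protease loci in CPM on a log axis, with 1 point per library (2 per group), a bar at the group mean, and flasks to the left of the grey line. MYCTH_49824 rises to the right within flasks and falls within plates, and cdt-2 is low in Xylan alone (423 and 195 CPM).

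**Figure D4:**
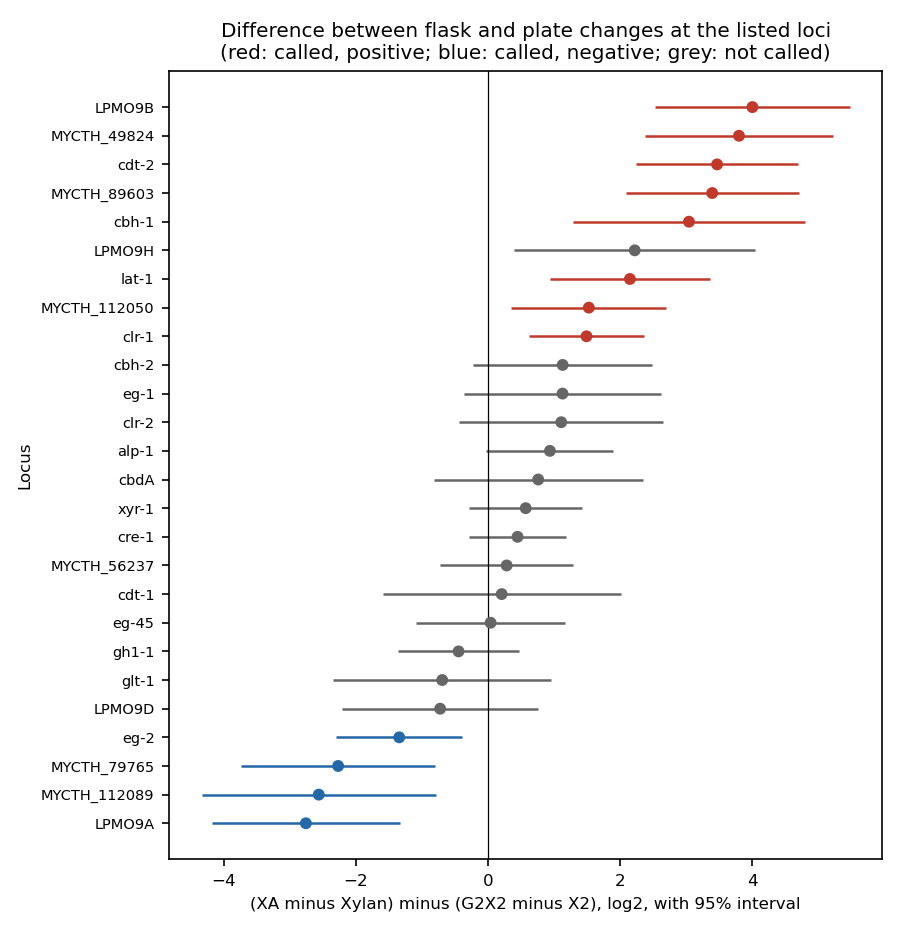
Contrast of flask and plate changes (log2) with its 95% interval for the 26 listed loci, ordered by size. The 8 red loci were called positive, from clr-1 (1.49) to LPMO9B (4.00), and the 4 blue loci negative, from eg-2 (-1.35) to LPMO9A (-2.76).

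Beyond the listed loci, the genes with the largest contrasts carry no name in the reference table, and no role is given to them. Of 2482 called genes with at least 20 CPM in some group and 1 sign in all 16 combinations of 1 library per group, 1094 were positive and 1388 negative. The sign rule removed almost none, as 2992 of the 2994 called genes met it. MYCTH_2314555 stood at 39.8 and 10.7 CPM in Xylan, 130 and 153 in XA, 344 and 608 in X2, and 17.6 and 18.0 in G2X2. It was higher in XA than in Xylan and lower in G2X2 than in X2, with a contrast of 7.23 ± 0.77 (edgeR adjusted p = 0.000133). MYCTH_2308149 behaved alike, at 11.4 and 3.05 CPM in Xylan, 78.4 and 101 in XA, 33.5 and 34.7 in X2, and 3.58 and 1.09 in G2X2 (7.51 ± 0.94). In both genes Xylan and XA did not overlap, nor did X2 and G2X2, but both had been picked for large contrasts. The fall was seen where cellobiose was added to xylobiose. With cellobiose alone (G2) MYCTH_2314555 stood at 1059 and 1835 CPM, against 41.8 and 29.0 with no carbon source (NoCarbon2). MYCTH_2308149 stood at 67.4 and 138 CPM in G2, against 15.7 and 26.5 in NoCarbon2.

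MYCTH_109499 also moved in opposite directions, from 6.94 and 19.4 to 100.4 and 87.3 CPM in flasks and from 23.4 and 35.1 to 4.28 and 3.12 CPM in plates (5.81 ± 0.63). MYCTH_107763 went from 7.70 and 3.25 to 39.2 and 36.8 CPM in flasks and from 12.0 and 19.0 to 0.994 and 0.793 CPM in plates (6.91 ± 1.08), its flask rise not being called without Xylan replicate 2 (2.29). MYCTH_2305399 differed through the plates, where it fell from 10.2 and 89.0 to 0.895 and 0.694 CPM; the contrast of 6.98 was 4.68 without X2 replicate 2 and called in both fits. For MYCTH_2296904 (6.73) and MYCTH_73236 (6.38) the plate fall was called under all alternatives run, whereas the flask rise was lost under 7 alternatives for the first and 6 for the second, among them leaving out either XA library or Xylan replicate 2.

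Very low counts set the other extremes. MYCTH_115957 had 0 counts in both G2X2 libraries against 522 in the X2 libraries, and was at least 211-fold lower in G2X2, taking 3 counts over the group as the floor. In flasks it stood at 57.6 and 21.3 CPM in Xylan and 27.5 and 37.7 in XA, which overlap. MYCTH_2110715 had 2 counts in G2X2 against 40 in X2, 24.3-fold higher in X2 with an exact 95% binomial interval of 6.30 to 207 for counting error alone, while in flasks it went from 1.05 and 0.15 to 24.8 and 35.2 CPM.

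In the negative direction, MYCTH_2059428 fell from 35.2 and 39.2 to 2.60 and 3.58 CPM in flasks and rose from 12.6 and 28.3 to 277 and 213 CPM in plates. Its contrast of -7.18 ± 0.97 (edgeR adjusted p = 0.000469) was the lowest under the naming rule. MYCTH_2107104 fell from 21.3 and 31.9 to 9.40 and 8.42 CPM in flasks, a call lost with the replicate block (-1.55) and without either XA library or Xylan replicate 2, and rose from 9.20 and 4.19 to 171 and 243 CPM in plates (-6.52 ± 0.80). MYCTH_2132560 had the closest replicates: 67.5 and 72.4 CPM in Xylan, 12.6 and 11.9 in XA, 29.5 and 36.1 in X2, and 157 and 148 in G2X2. Its contrast was -4.73 ± 0.29 (edgeR adjusted p = 5.43e-06). MYCTH_59106 followed the same course (-5.18 ± 0.85).

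A fall with Avicel and no call in plates marked MYCTH_2071908, which went from 140 and 191 to 4.96 and 7.91 CPM in flasks and stood at 22.2 and 29.4 CPM in X2 and 37.7 and 30.0 in G2X2 (-5.08 ± 0.63). MYCTH_2072383 did likewise, from 62.1 and 43.8 to 1.38 and 1.95 CPM in flasks (-5.12 ± 0.87). At the other end, 100 genes were called higher in both vessels with a 95% interval of the contrast within -1 to 1. The 4 of these with the highest mean CPM were MYCTH_112471, MYCTH_2299680, MYCTH_2311910 and MYCTH_2050660, and their changes were modest, from 0.46 to 0.94 on the log2 scale. Each of the 4 lost the call in at least 1 vessel on leaving out single libraries. The plate calls of MYCTH_2299680 and MYCTH_2311910 were also lost with the replicate block (0.50 and 0.46), DESeq2 size factors, upper-quartile scaling or X2 and G2X2 fitted alone. Their contrasts lay between -0.40 and 0.26.

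Genes called in the contrast also lay side by side. Among 9097 protein-coding genes in the order of the reference assembly ASM22609v1, 117 runs of at least 3 neighbours were called in 1 direction, 61 positive and 56 negative. They held 399 genes, or 13.3% of the called genes in that order. No test of clustering was made. With 17.0% of genes called positive and 17.9% negative, some runs would arise by chance alone, and their number was not worked out. Most runs were short, with 89 of 3 genes and 18 of 4, while 4 held 6 genes and 3 held 7. Reads of overlapping neighbours cannot be separated without a stated strand setting, and their share in the runs was not tested.

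A run of 7 from MYCTH_61442 to MYCTH_2311121 was marked by the plates. The first gene, MYCTH_61442, stood at a mean of 767 CPM in Xylan, 886 in XA, 3644 in X2 and 103 in G2X2. All 7 genes were called lower in plates and 0 were called in flasks. Leaving aside MYCTH_2311121, which had 0 counts in G2X2 against 81 in X2, the plate changes ran from -5.14 to -2.87 and the flask changes from -0.99 to 0.39. Called members numbered 4 of 7 without XA replicate 2, and all 7 kept their sign under all 14 alternatives.

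A run of 6 from MYCTH_2064854 to MYCTH_82772 was its mirror. All 6 genes were called higher in plates, by 2.70 to 6.61, and 0 were called in flasks, where changes lay between -0.15 and 1.16. MYCTH_82772 stood at 209 and 448 CPM in Xylan, 656 and 810 in XA, 65.2 and 17.3 in X2, and 2694 and 5411 in G2X2 (-5.46 ± 0.96). Its neighbour MYCTH_69746 stood at 205 and 542 CPM in Xylan, 617 and 760 in XA, 78.5 and 10 in X2, and 2515 and 4257 in G2X2 (-5.37 ± 1.08). Among the 4 contrasted groups, X2 was the lowest and G2X2 the highest in both genes. Under 12 of the 14 alternatives all 6 members were called.

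A run of 7 from MYCTH_2018746 to MYCTH_2308103 was called in opposite directions at 4 of its genes. All 7 were called higher in plates and 4 were called lower in flasks. Its last gene, MYCTH_2308103, went from 10.6 and 20.8 to 5.47 and 4.28 CPM in flasks and from 6.86 and 13.7 to 187 and 66.6 CPM in plates (-5.31 ± 0.76), the flask fall being lost without either XA library or Xylan replicate 2. The run of 7 from MYCTH_2299804 to MYCTH_2299830 was lower in plates in all 7 genes. In flasks 3 were called higher and 4 were not called, MYCTH_2299819 (-0.43) and MYCTH_2299830 (-0.31) being below 0 there too. All 7 were called in the contrast under all 14 alternatives.

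Of the listed loci, 3 lay in runs. The gene lat-1 was the fourth of 5 genes called positive; its neighbour MYCTH_83019 stood at a mean of 274 CPM in Xylan, 329 in XA, 45.7 in X2 and 9.33 in G2X2, with a contrast of 2.56 beside 2.15 for lat-1. MYCTH_49824 was the third of 4 genes, all 4 called higher with Avicel, and LPMO9B began a run of 3. In a fit of the 4 contrasted groups alone, 5 of 5, 3 of 4 and 1 of 3 members of these runs were called. Each run also lost called members on leaving out single libraries. Loss of calls did not follow run length, as a run of 6 from MYCTH_58642 to MYCTH_2145046 kept 3 of 6 in the fit of the contrasted groups.

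**Figure D5:**
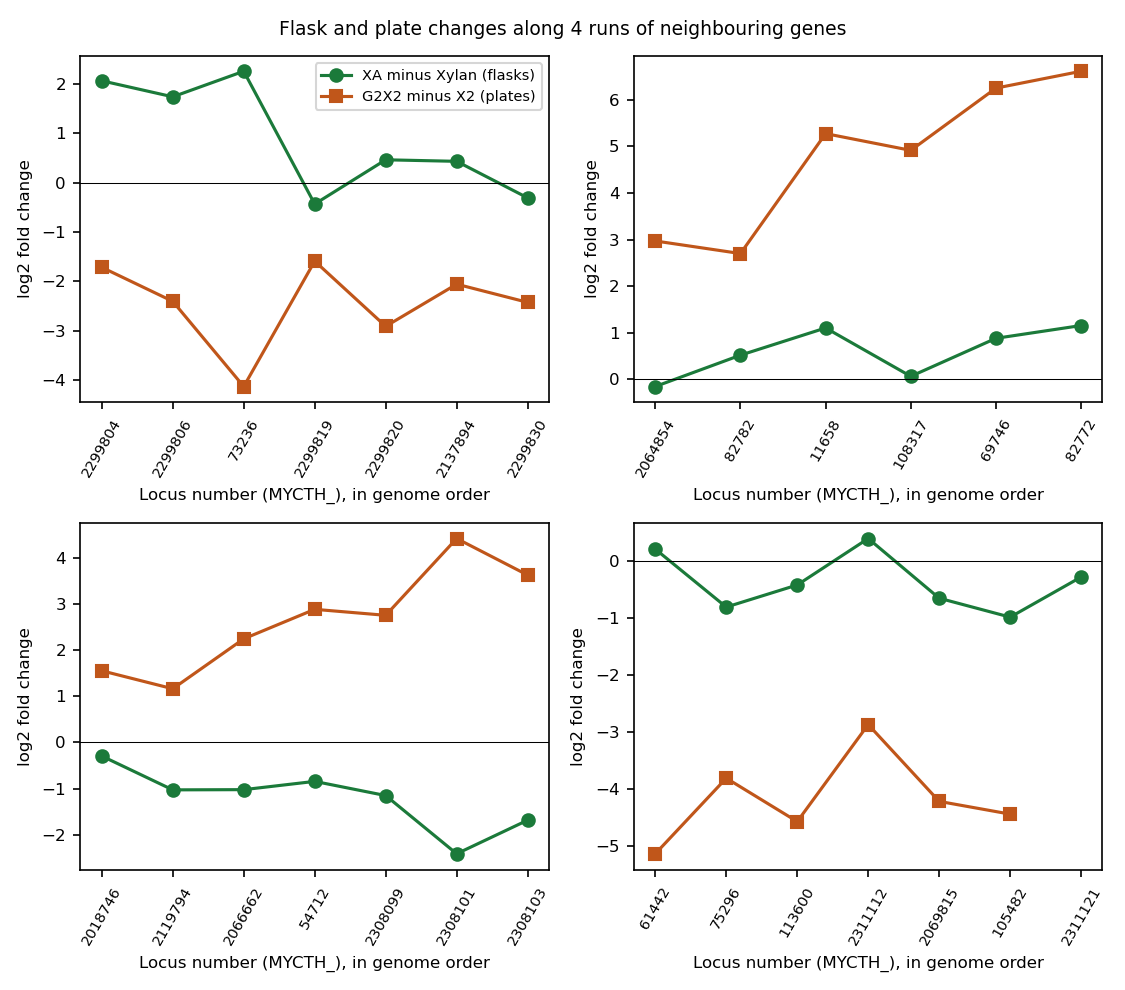
Log2 change from Xylan to XA (green circles) and from X2 to G2X2 (orange squares) along 4 runs of neighbouring genes, in the order of the reference assembly and not to scale. In each run the orange line lies on 1 side of 0 throughout; MYCTH_2311121 has no orange square because it had 0 counts in G2X2.

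The same flask change was also set against cellobiose without xylobiose, G2 (2% cellobiose) minus NoCarbon2 (no carbon source). The starting wells here held no sugar, so a response to cellobiose and a response to any carbon source cannot be told apart. Replicates correlated across genes at r = 0.961 in NoCarbon2 and 0.988 in G2. Their median differences were 0.38 and 0.18 on the log2 scale. The contrast with G2 and NoCarbon2 shares the flask libraries with the contrast above, so the values stand side by side with no measure of agreement. It called 33.9% of genes, 16.6% positive and 17.4% negative, and of the 12 cellulase and LPMO loci 0 were positive and 4 negative. For LPMO9A the contrast was -2.76 against G2X2 minus X2 and 0.98, not called, against G2 minus NoCarbon2. The xylanase locus MYCTH_89603 had values of 3.40 and 0.71, the second not called. For LPMO9B the values were 4.00 and 1.25, for cbh-1 3.04 and 1.58, and for cdt-2 3.47 and 1.49, the second of each pair not called; cdt-2 was called there with upper-quartile scaling, with DESeq2, and without Xylan replicate 1 or NoCarbon2 replicate 2, and cbh-1 without Xylan replicate 1.

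Several loci were called in both contrasts. The value of MYCTH_49824 was 3.80 and 2.36, that of MYCTH_112050 1.53 and 1.85, that of clr-1 1.49 and 1.88, that of eg-2 -1.35 and -2.96, that of MYCTH_79765 -2.27 and -2.81 and that of MYCTH_112089 -2.56 and -4.38, though MYCTH_49824 and MYCTH_112050 lost the second call on leaving out single libraries (without NoCarbon2 replicate 2, 1.83 and 1.59). The gene lat-1 was also called in both contrasts, at 2.15 and 1.603. Its second call was lost in a fit of the contrasted groups alone. It was also lost without Xylan replicate 2 (1.04) or any XA, G2 or NoCarbon2 library. The locus glt-1 had values of -0.69, not called, and -4.88 (edgeR adjusted p = 0.000969). It stood at 14.5 and 6.15 CPM in NoCarbon2 and at 184 and 326 in G2. The sign turned for eg-1, at 1.13, not called, and -2.61, called but lost without XA replicate 2 (-2.39), G2 replicate 1 (-1.93) or NoCarbon2 replicate 2 (-2.50). It also turned for alp-1, at 0.94, not called, and -1.23, a call lost under 9 alternatives, the replicate block (-1.25) and NoCarbon2 replicate 2 left out (-0.77) among them. For cre-1 (0.45 and -0.65) and LPMO9H (2.22 and -0.09) the signs differed with neither called, though cre-1 was called there without NoCarbon2 replicate 1 (-1.13). For cbh-2, cbdA and gh1-1 neither contrast was called, with values of 1.13 and -0.30, 0.76 and 0.10, and -0.45 and -0.47.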

How the data were processed

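The deposited values were raw counts of reads per gene. Per the submitters' processing notes, the tools included TopHat2 2.0.8b and HTSeq 0.13.5. The build, the annotation and any strand setting were not given in the sources used here, so no coordinates are printed. Groups and replicate numbers came from sample titles. The NCBI table of ASM22609v1 matched 9087 identifiers and was used for 6 symbols and for gene order.

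edgeR 4.0.16 (R 4.3.3) was run on the counts: filterByExpr (minimum count 10) kept 8567 genes, libraries were TMM-scaled, and a robust quasi-likelihood model of 7 group means took in all 14 libraries. Adjusted p-values are Benjamini-Hochberg over all genes tested, two-sided; DESeq2 1.42.0 was an alternative. Standard errors and 95% intervals came from the F statistic. The contrast was tested on simulated data over 8531 genes with 50 changed per fold size, in the XA libraries alone. Of these, 10% of 2-fold, 72% of 4-fold, 92% of 8-fold and 90% of 16-fold changes were recovered. Among the genes called, 2.22% were false. Far fewer genes were changed than were called in the data (34.9%), so these rates need not carry over.

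Members and lists were chosen with earlier results of these data known. Named genes are the listed loci, the 8 highest and 8 lowest contrasts among called genes with at least 20 CPM in a group and 1 sign over library combinations, the 4 per direction with the largest opposite changes, and 4 called higher in both vessels. The runs described were picked after their values were seen. Lists that needed protein or promoter tables were not made.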

Additional observations from a re-analysis of the deposited data

Results flagged for a closer look

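Named genes called in both vessels with opposite signs, and in the contrast, were singled out. Their changes from Xylan to XA and from X2 to G2X2 differed by the edgeR test of the difference. In the positive direction these were MYCTH_2110715 (10.16 on the log2 scale, a fitted value that depends on 2 counts in G2X2), MYCTH_2308149 (7.51), MYCTH_2314555 (7.23), MYCTH_107763 (6.91), MYCTH_2296904 (6.73), MYCTH_73236 (6.38), MYCTH_109499 (5.81) and the xylanase locus MYCTH_49824 (3.80). In the negative direction they were MYCTH_2059428 (-7.18), MYCTH_2107104 (-6.52), MYCTH_2308103 (-5.31), MYCTH_59106 (-5.18) and MYCTH_2132560 (-4.73). All 421 genes called in opposite directions were also called in the contrast, so that second call sets none of them apart. Except for the listed locus MYCTH_49824, the named genes were picked for large contrasts or large opposite changes in these libraries. That the contrast of each was called under all 14 alternatives is therefore no independent support. The flask changes of MYCTH_2296904, MYCTH_73236, MYCTH_2107104, MYCTH_2308103 and MYCTH_49824 were not called without either XA library, nor that of MYCTH_59106 without XA replicate 1 (-2.58). The plate change of MYCTH_59106 was not called without G2X2 replicate 2 (1.98) or X2 replicate 2 (2.22).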

How the results depend on the processing

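The contrast called 1915 to 3472 genes on leaving out 1 of its 8 libraries (lowest without XA replicate 2, highest without X2 replicate 1), XA against Xylan 1203 to 2193, G2X2 against X2 1369 to 2790, and the contrast with G2 and NoCarbon2 1849 to 3291. G2X2 against X2 called 1170 genes when those 2 groups were fitted alone. With an absolute log2 value of at least 1 also required, XA against Xylan called 1522 and G2X2 against X2 1400 genes. The other alternatives (DESeq2 size factors, upper-quartile scaling, DESeq2, no low-count filter, contrasted groups only, replicate block) kept the contrast's count within 2653 to 3365. Upper-quartile scaling moved the median contrast of all genes from -0.02 to 0.10, and that of the flask change from 0.01 to 0.11, with 55.9% of called contrasts positive against 48.7%. Same-numbered replicates did not deviate together (correlations -0.13 to 0.18 over 21 pairs of groups), so numbers were not taken to pair libraries; with the replicate block 2801 genes were called. Of 30 named genes and loci called in the contrast, 23 were called under all 14 alternatives, and 0 of the 48 reversed with a call. Most of the 30 were picked for large or opposite contrasts in these same libraries, so that share does not describe called genes at large. Without 1 library its group is a lone sample, assumed to vary like the others. The cause of these shifts was not tested.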
